A study of Oncorhynchus mykiss with 6 samples.

Results

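The 10 loci described here carry the RNA for the nuclear receptors of thyroid hormone and for the deiodinases, the enzymes that switch the hormone on and off, in skin from the back of rainbow trout (Oncorhynchus mykiss). They were taken from the 41818 loci of the deposited table by symbol or product name, and comprise 4 loci of thyroid hormone receptor alpha (symbol thra1 in the table), 2 of receptor beta (thrb), 1 of type I deiodinase (dio1), 1 of type II (dio2) and 2 of type III (dio3). The study sequenced RNA of dorsal skin at 45 days of age, with 3 libraries from a yellow mutant and 3 from wild-type fish. The labels give the phenotype but name no allele, strain or rearing condition. Nothing in them ties a library to its own fish or to a pool, so the p-values reflect the scatter among the libraries of a phenotype, and this scatter may be technical in part. Total counts were 15059101 to 19031878 per library.

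The thyroid gland releases mainly thyroxine, a weakly active form, and target tissues convert it. Type II deiodinase removes an outer-ring iodine and makes the active triiodothyronine, type III removes an inner-ring iodine and inactivates both forms, and type I can do either. All of them are selenoproteins. Active hormone binds the receptors alpha and beta, transcription factors that sit on DNA mostly as partners of retinoid X receptors, hold corepressors when empty and recruit coactivators when occupied. In zebrafish, loss of thyroid hormone leaves adults with more black melanophores and few visible yellow xanthophores.

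Skin of the yellow mutant held less RNA of both thrb loci and of 2 of the 4 thra1 loci than wild-type skin. It held more RNA of the deiodinases dio1 and dio3. Of the 6 receptor loci 4 were lower, 1 was higher and 1 did not pass the test, while all 3 tested deiodinase loci were higher. The steepest change was at dio3 (ncbi_110522491), 3.28-fold higher, and the steepest decrease was at thra1 (ncbi_110499114), 1.76-fold lower. The test was edgeR's quasi-likelihood test over 30691 genes with Benjamini-Hochberg adjustment and a threshold of 0.05. It passed 44.8% of all tested genes, 21.7% as higher and 23.1% as lower, against 8 of 9 tested loci here (88.9%), 4 higher and 4 lower. The dio2 locus was too rare to be tested. Each log2 fold change sets yellow mutant over wild-type and comes with its standard error (SE). Unless FPKM is named, levels in a comparison of phenotypes are CPM, counts relative to library size, scaled with TMM factors. These factors balance the libraries on the bulk of their genes. With library totals in their place the median log2 fold change over the tested genes lay at 0.20 instead of -0.003, so each change is relative to the TMM factors. Whether fewer cells of a type or less RNA per cell lies behind a lower value cannot be told apart in whole skin.

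**Figure D1:**
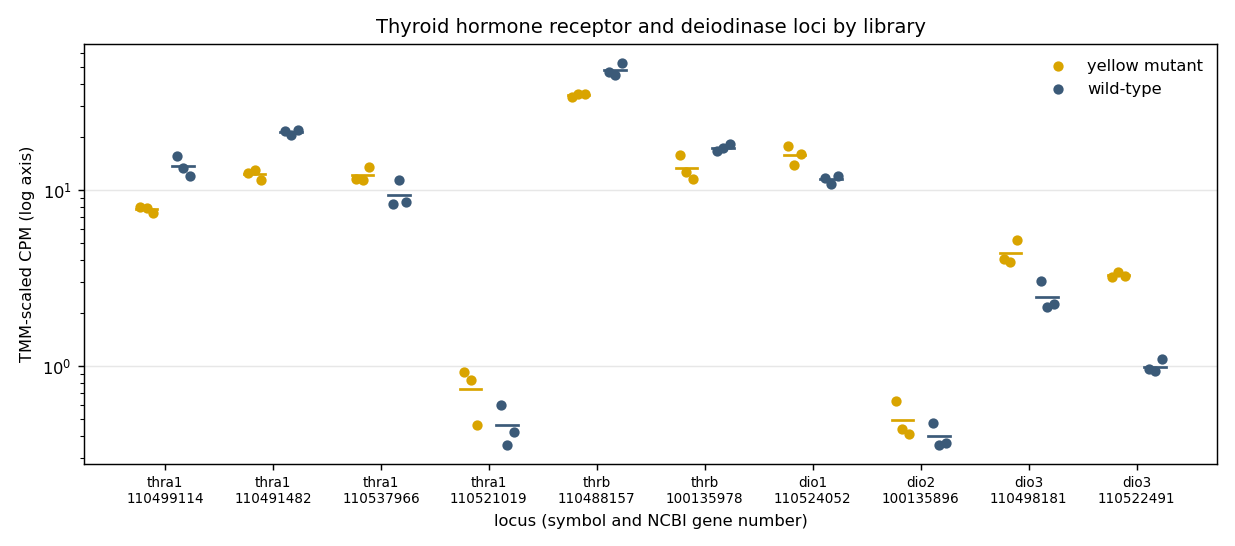
TMM-scaled CPM (log axis) of the 10 loci in each of the 6 libraries, yellow mutant left and wild-type right at each locus, with points for libraries and bars for means. The points of the phenotypes are separate at 8 loci and overlap at thra1 110521019 and dio2.

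The most abundant of the alpha receptor loci by counts in wild-type skin, thra1 (ncbi_110491482), held 12.5, 13.0 and 11.4 CPM in yellow mutant replicates 1 to 3, against 21.5, 20.5 and 21.7 CPM in wild-type replicates 1 to 3. Each yellow mutant library lay well below each wild-type library. The log2 fold change was -0.79 (SE 0.092, adjusted p = 1.56e-05). A second alpha locus, thra1 (ncbi_110499114), stood at 7.98, 7.88 and 7.42 CPM in the yellow mutant libraries, against 15.6, 13.3 and 12.0 CPM in the wild-type libraries. The yellow mutant values were close together and the wild-type values were more spread, with no overlap. Its log2 fold change was -0.81 (SE 0.12, adjusted p = 0.000122).

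The other alpha receptor loci did not share this decrease. At thra1 (ncbi_110537966) the yellow mutant libraries held 11.5, 11.4 and 13.4 CPM and the wild-type libraries 8.29, 11.3 and 8.47 CPM. The phenotypes were separate by a narrow margin, since wild-type replicate 2 nearly reached the lowest yellow mutant library. This locus was 1.30-fold higher (log2 fold change 0.38, SE 0.13, adjusted p = 0.0337). The call was lost without wild-type replicate 1 or 3 or yellow mutant replicate 3 (adjusted p = 0.118, 0.121 and 0.124), in DESeq2 (0.0856) and with limma on FPKM (0.212 to 0.214). The rare thra1 (ncbi_110521019) had 16, 17 and 9 counts in the yellow mutant and 10, 5 and 7 counts in the wild type. Yellow mutant replicate 3 lay within the wild-type range, and its change did not pass (log2 fold change 0.66, SE 0.42, adjusted p = 0.223).

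Neighbouring genes place the alpha loci in pairs. In the RefSeq gene table of assembly USDA_OmykA_1.1, ncbi_110491482 and ncbi_110499114 both have loci of DHX8, etv4, meox1 and WNT3 within 4 genes on either side. Both ncbi_110537966 and ncbi_110521019 have a locus of prolactin (prl) there instead. Loci of NSF and PSMD11 lie within 4 genes of each of the alpha loci. Rainbow trout keep many gene pairs from a whole-genome duplication in salmonids. How reads shared by near-identical loci were counted is not stated, so the split between loci of a pair is uncertain, here and at thrb, dio3, Klf9 and the other duplicated genes. The 2 loci of the pair near DHX8 were both lower by similar amounts, and the 2 loci of the pair near prolactin both had log2 fold changes above 0, of which 1 passed the test.

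The shares of the alpha receptor loci are free of the scaling between libraries. The locus ncbi_110537966 supplied 36.8 ± 3.69% of the alpha receptor counts in the yellow mutant and 20.9 ± 3.54% in the wild type (SD, n = 3 each). The share of ncbi_110491482 was 37.3 ± 2.31% in the yellow mutant and 47.6 ± 3.07% in the wild type, and that of ncbi_110499114 was 23.6 ± 0.781% in the yellow mutant and 30.5 ± 3.10% in the wild type. The rare ncbi_110521019 made up 2.24 ± 0.738% in the yellow mutant and 1.03 ± 0.256% in the wild type. None of these 4 shares overlapped between the phenotypes. They are parts of the same total in each library, so a fall in some raises the others and they are not separate results. The share of ncbi_110521019 separated narrowly, with 1.41% in yellow mutant replicate 3 and 1.30% in wild-type replicate 1, while its counts and CPM overlapped. The exact two-sided permutation test gave p = 0.1 for each, the smallest value that 3 libraries against 3 allow (adjusted p = 0.125 over 15 such sums, shares and ratios).

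**Figure D2:**
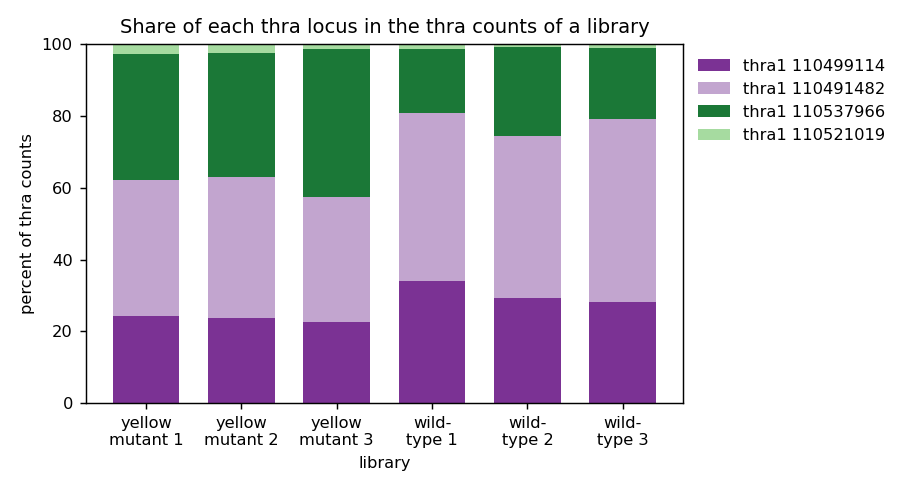
Percent of the counts over all 4 thra loci that fell at each locus, 1 stacked bar per library. The dark green part, ncbi_110537966, averages 36.8% in the yellow mutant libraries and 20.9% in the wild-type libraries.

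Both beta receptor loci were lower in the yellow mutant. The more abundant, thrb (ncbi_110488157), stood at 33.7, 34.8 and 35.0 CPM in the yellow mutant libraries and at 46.5, 45.0 and 52.4 CPM in the wild-type libraries. No library of either phenotype came near the other range, and the log2 fold change was -0.48 (SE 0.081, adjusted p = 0.000349). The other, thrb (ncbi_100135978), stood at 15.8, 12.7 and 11.6 CPM in yellow mutant skin, against 16.7, 17.2 and 18.1 CPM in wild-type skin. Yellow mutant replicate 1 lay just under the wild-type range. Its log2 fold change was -0.38 (SE 0.12, adjusted p = 0.0171), and the call was lost with library totals in place of TMM factors (-0.18, adjusted p = 0.203) and without yellow mutant replicates 2 or 3 or wild-type replicate 3 (0.0678, 0.0791 and 0.0589). Its FPKM values, which are scaled to library totals, overlapped between the phenotypes, and limma on them gave adjusted p = 0.221 to 0.224.

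Of the beta receptor counts, ncbi_110488157 supplied 72.2 ± 3.69% in the yellow mutant and 73.4 ± 0.983% in the wild type, ranges that overlapped (exact permutation p = 0.8). Both loci have NR1D2, RPL15, nkiras1 and RARB as neighbours in the reference table. That table also lists 2 other genes that overlap ncbi_100135978 and a long noncoding RNA that overlaps ncbi_110491482. Whether the counting used strand is not stated, so reads from such partners cannot be told apart.

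Type III deiodinase, the inactivating enzyme, held the largest change among the 9 tested loci. The dio3 locus ncbi_110522491 stood at 3.18, 3.42 and 3.22 CPM in the yellow mutant libraries, against 0.954, 0.930 and 1.09 CPM in the wild-type libraries. The libraries of each phenotype lay close together and far from those of the other. It rested on 188 counts in the yellow mutant and 47 in the wild type, and the log2 fold change was 1.72 (SE 0.24, adjusted p = 7.10e-05). The second locus, dio3 (ncbi_110498181, dio3a in the reference table and deiodinase 3b in the product name), stood at 4.05, 3.91 and 5.17 CPM in yellow mutant skin, against 3.04, 2.15 and 2.24 CPM in wild-type skin. Yellow mutant replicate 3 and wild-type replicate 1 were the highest of their groups, and the groups did not overlap. This locus was 1.76-fold higher (log2 fold change 0.81, SE 0.21, adjusted p = 0.00688).

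Both dio3 loci lie beside a PPP2R5C locus in the reference table. The locus ncbi_110498181 supplied 57.0 ± 4.21% of dio3 counts in the yellow mutant and 71.1 ± 4.56% in the wild type, with no overlap between the phenotypes (exact permutation p = 0.1, the smallest possible, adjusted p = 0.125). Summed over both loci, dio3 averaged 7.65 ± 0.645 CPM in yellow mutant skin, against 3.47 ± 0.475 CPM in wild-type skin, a 2.22-fold difference.

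Type I deiodinase, which can activate or inactivate the hormone, was also higher. Its locus dio1 (ncbi_110524052) stood at 17.7, 13.9 and 15.9 CPM in yellow mutant skin, against 11.7, 10.8 and 12.0 CPM in wild-type skin. The lowest yellow mutant library, replicate 2, exceeded the highest wild-type library. The log2 fold change was 0.45 (SE 0.11, adjusted p = 0.00476).

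Type II deiodinase, the activating enzyme, was nearly at the limit of detection. The single dio2 locus (ncbi_100135896) had 11, 9 and 8 counts in the yellow mutant libraries and 8, 5 and 6 counts in the wild-type libraries. The counts overlapped, and the locus did not pass the filter on low counts. In the fit without that filter its log2 fold change was 0.29 (SE 0.54, adjusted p = 0.715), so that a moderate difference in either direction was not detectable at this depth.

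**Figure D3:**
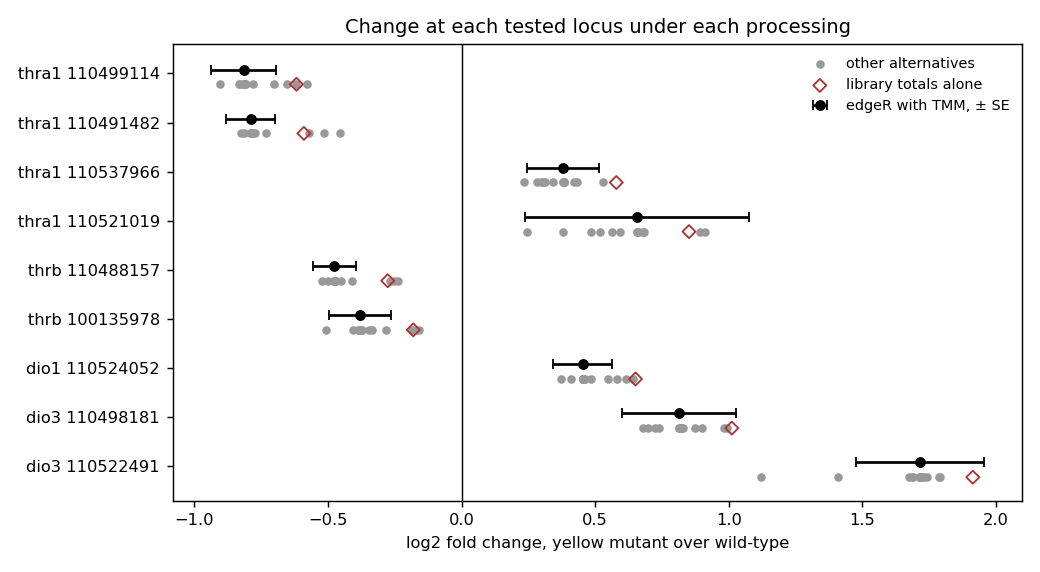
Log2 fold change of yellow mutant over wild-type skin at the 9 tested loci. Black points with bars are the edgeR estimate with TMM factors ± SE, red diamonds use library totals alone, and grey points are the other alternatives. No locus changes sign, and the values with library totals alone lie to the right of the estimates with TMM factors.

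The CPM values of the phenotypes did not overlap at 8 of the 9 tested loci, and this was so at 54.3% of all tested genes. The authors' deposited table, built on the same counts, lists 7 of the 10 loci at a false discovery rate under 0.05. Of these 3 were higher and 4 lower. The locus thra1 (ncbi_110537966) is not among them in the authors' deposited table, with 0.0873. For comparison, DESeq2 run here at an adjusted p under 0.05 called 11124 of 35162 genes, 5247 higher and 5877 lower.

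Levels of different loci were compared on the authors' FPKM values, which are counts per length and library total and carry no TMM factors. The order, the FPKM sums and their ratios depend on the length given to each locus. In wild-type replicate 1 counts and FPKM imply 6.13 kb for thrb (ncbi_110488157) and 2.39 kb for thrb (ncbi_100135978). They imply 1.47 kb for thra1 (ncbi_110499114) and 4.77 kb for thra1 (ncbi_110491482). By counts the last exceeded ncbi_110499114 in the wild type, averaging 335 against 215. In the yellow mutant, dio1 was highest at 10.5 ± 1.18 FPKM (SD, n = 3). Next came thrb (ncbi_110488157) at 6.02, thrb (ncbi_100135978) at 5.98 and thra1 (ncbi_110499114) at 5.45 FPKM on average. The ranges of neighbours overlapped among these receptor loci but not between dio1 and the next locus. In the wild type thra1 (ncbi_110499114) was highest at 8.69 ± 1.35 FPKM, followed by the beta loci at 7.28 and 6.75 FPKM and by dio1 at 6.65 ± 0.375 FPKM, each overlapping the next.

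The lower part of the order also shifted. In the yellow mutant dio3 (ncbi_110498181) at 3.08, thra1 (ncbi_110491482) at 2.77, dio3 (ncbi_110522491) at 2.75 and thra1 (ncbi_110537966) at 2.22 FPKM each overlapped the next. In the wild type thra1 (ncbi_110491482) at 4.16 FPKM stood clear of thra1 (ncbi_110537966) at 1.74, dio3 (ncbi_110498181) at 1.52 and dio3 (ncbi_110522491) at 0.723 FPKM, of which the first pair overlapped. The loci thra1 (ncbi_110521019) and dio2 came last in both phenotypes, at 0.530 and 0.217 FPKM in the yellow mutant and 0.287 and 0.157 FPKM in the wild type.

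Summed over all loci, the deiodinases stood at 16.5 ± 1.25 FPKM in the yellow mutant and 9.05 ± 0.668 FPKM in the wild type. The receptors stood at 23.0 ± 0.667 FPKM in the yellow mutant and 28.9 ± 1.36 FPKM in the wild type. Neither sum overlapped between the phenotypes. The ratio of dio3 to dio1 was 0.561 ± 0.0790 in the yellow mutant and 0.337 ± 0.0373 in the wild type, again without overlap. For these 3 quantities the exact two-sided permutation test gave p = 0.1, its smallest possible value (adjusted p = 0.125). The ratio of alpha to beta receptor was 0.916 ± 0.0639 in the yellow mutant and 1.06 ± 0.159 in the wild type, and overlapped (p = 0.3, exact permutation test, adjusted p = 0.321). These FPKM sums carry no TMM factors. Summed dio3 was 2.61-fold higher in the yellow mutant on FPKM and 2.22-fold on TMM-scaled CPM. Summed thrb was 1.17-fold lower on FPKM and 1.36-fold lower on TMM-scaled CPM.

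**Figure D4:**
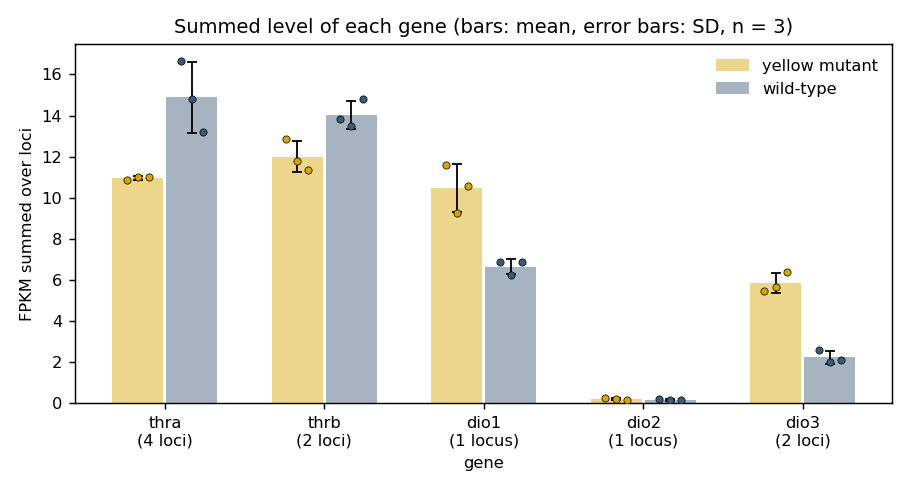
FPKM summed over the loci of each gene, with bars for the mean of 3 libraries, error bars for the SD and points for libraries, yellow mutant left of wild-type. The receptors thra and thrb are lower in the yellow mutant, at 11.0 and 12.0 FPKM, and dio1 and dio3 are higher, at 10.5 and 5.83 FPKM. The values carry no TMM factors.

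The transcript length implied by counts and FPKM was nearly constant across libraries at most loci, for example 1.61 kb in every library for dio1. At thra1 (ncbi_110537966) it was 5.91, 6.58 and 5.29 kb in the yellow mutant libraries and 4.18, 5.07 and 6.13 kb in the wild-type libraries. The libraries overlapped, and the largest length was 1.57 times the smallest. The FPKM of this locus overlapped between the phenotypes although its CPM did not.

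Of 10 tested loci of retinoid X receptors, the DNA-binding partners, 3 fell, 0 rose and 7 did not pass, against 23.1% of all tested genes that fell and 21.7% that rose. The median log2 fold change was -0.19, against -0.003 over all tested genes. With library totals 3 fell and 1 rose, and the median was 0.006. Under that scaling 4544 of all 30691 tested genes fell and 10805 rose, with a median of 0.20. All that fell with TMM factors were beta forms, but not every tested beta form fell. The most abundant, rxrba (ncbi_110506642), averaged 74.6 ± 1.73 CPM in yellow mutant skin, against 115.8 ± 2.88 CPM in wild-type skin (SD, n = 3 each, log2 fold change -0.64, SE 0.071, adjusted p = 1.06e-05). Rxrb (ncbi_110520503) fell by 0.45 (SE 0.087) and rxrba (ncbi_101268904) by 0.39 (SE 0.073) on the log2 scale, and the call of the last was lost with limma on FPKM (adjusted p = 0.0858 to 0.0882). Another beta locus, rxrba (ncbi_110488342), did not pass (-0.08, SE 0.13, adjusted p = 0.665). The gamma locus rxrga (ncbi_110508859) narrowly missed the threshold (-0.40, SE 0.16, adjusted p = 0.0511). The restriction of the calls to beta forms therefore rests on that threshold.

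Among corepressors and coactivators 15 of 38 tested loci fell and 6 rose (median -0.18), and with library totals 7 fell and 11 rose (median 0.02). Over all tested genes 23.1% fell and 21.7% rose with TMM factors (median -0.003). With library totals 4544 of all 30691 fell and 10805 rose. Coactivator and corepressor genes were both among those that fell. They include ncoa2 (ncbi_110536532), a receptor coactivator, with 1.61 ± 0.497 CPM in yellow mutant skin, against 3.93 ± 0.790 CPM in wild-type skin (log2 fold change -1.28, SE 0.26). The more abundant ncoa2 locus ncbi_110508769 also fell (-0.48, SE 0.10). The ncoa2 loci ncbi_110530268 (-0.19, SE 0.10, adjusted p = 0.142) and ncbi_110489533 (0.09, SE 0.20, adjusted p = 0.744) did not pass. GPS2 (ncbi_110491040), a subunit of the corepressor complex, fell by 0.63 (SE 0.11). The loci that rose were led by the mediator subunit med1 (ncbi_110489873, 0.73, SE 0.14), another GPS2 locus, Gps2 (ncbi_110500675, 0.53, SE 0.16), and hdac3 (ncbi_110504769, 0.44, SE 0.099), the histone deacetylase of the corepressor complex. The call of Gps2 (ncbi_110500675) was lost in DESeq2 (adjusted p = 0.0564) and when wild-type replicate 1 or yellow mutant replicate 3 was left out (0.0603 and 0.0649). The GPS2 loci ncbi_110531819 (0.38, SE 0.16, adjusted p = 0.0786) and ncbi_110534217 (-0.26, SE 0.12, adjusted p = 0.0898) did not pass. The more abundant MED1 locus, ncbi_110491680, did not pass either (0.02, SE 0.10, adjusted p = 0.876).

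Carriers of the hormone went both ways, with 5 of 16 tested loci higher and 2 lower (median 0.10), or 8 higher and 2 lower with library totals. The shares of all tested genes with TMM factors were 21.7% higher and 23.1% lower. With library totals 10805 of all 30691 tested genes were higher and 4544 lower. Slc16a10 (ncbi_110529198), the gene of a transporter of aromatic amino acids and thyroid hormone, averaged 30.1 ± 2.25 CPM in yellow mutant skin, against 20.1 ± 1.11 CPM in wild-type skin (log2 fold change 0.58, SE 0.088). The amino acid transporter gene SLC7A5 (ncbi_110511826) was higher by 1.55 (SE 0.22) and the gene Crym (ncbi_110499216), whose product binds triiodothyronine in the cytosol of mammals, by 0.60 (SE 0.15). Slc7a8 (ncbi_110531623), another amino acid transporter, fell by 0.74 (SE 0.20). No other Slc7a8 locus passed the test (adjusted p = 0.245 to 0.895).

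The machinery that inserts selenocysteine, which all deiodinases need, had 2 of 10 tested loci higher and 1 lower (median 0.06), or 5 higher and 0 lower with library totals. With TMM factors neither direction exceeded its share of all tested genes, 21.7% higher and 23.1% lower. With library totals 10805 of all 30691 tested genes were higher and 4544 lower. The kinase gene Pstk (ncbi_110531859) was higher by 0.80 (SE 0.14), and its other locus, ncbi_110531886, did not pass (0.25, SE 0.18, adjusted p = 0.274). Sepsecs (ncbi_110500323) was higher by 0.29 (SE 0.11) and trnau1ap (ncbi_110496892) fell by 0.63 (SE 0.21). The most abundant trnau1ap locus, ncbi_110487875, did not pass (0.07, SE 0.080, adjusted p = 0.531), nor did ncbi_110538915 and ncbi_110512109. The calls of sepsecs and trnau1ap (ncbi_110496892) were each lost in 8 of 15 alternatives, among them DESeq2 (adjusted p = 0.153 and 0.0624). Without wild-type replicate 1 the log2 fold change of sepsecs was 0.19.

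Genes described as responsive to thyroid hormone in other vertebrates did not move one way. Of 16 tested loci 7 rose, 5 fell and 4 did not pass (median 0.11), against 21.7% of all tested genes that rose and 23.1% that fell. With library totals 8 rose and 4 fell (median 0.31), where 10805 of all 30691 tested genes rose and 4544 fell (median 0.20). No locus carried the listed symbols thrsp, hr, me1 or pmp2. Klf9, a direct receptor target in frogs and mammals that also responds to glucocorticoids, had loci with opposite calls. Klf9 (ncbi_110525414) averaged 2.61 ± 0.412 CPM in yellow mutant skin, against 37.4 ± 4.08 CPM in wild-type skin (log2 fold change -3.82, SE 0.13). KLF9 (ncbi_110530064) averaged 12.8 ± 1.20 CPM in yellow mutant skin, against 6.63 ± 0.789 CPM in wild-type skin (0.96, SE 0.13). Klf9 (ncbi_110508991) did not pass (-0.21, SE 0.12, adjusted p = 0.175). The keratocan gene kera (ncbi_110490576) fell by 0.91 (SE 0.13) and the myelin gene MBP (ncbi_110489647) by 0.75 (SE 0.14). BCL6 loci also had opposite calls. The most abundant, ncbi_110508980, fell to 20.3 ± 1.94 CPM in yellow mutant skin, against 25.9 ± 2.58 CPM in wild-type skin (log2 fold change -0.35, SE 0.10), and ncbi_110530070 did not pass (-0.14, SE 0.19, adjusted p = 0.573). Both were added to show the whole gene after their values had been seen. A pair of rare BCL6 loci rose, ncbi_110521847 by 0.99 (SE 0.29) and ncbi_110524862 by 0.91 (SE 0.25). The call of ncbi_110521847 was lost when wild-type replicate 3 or yellow mutant replicate 2 was left out (adjusted p = 0.0573 and 0.0723). The list also holds loci of BCL6B, a separate gene, because symbols were matched with an optional final letter. The BCL6B loci, ncbi_110531726 and ncbi_110500596, are among those that rose. So are the ST3GAL2 loci ncbi_110520111 (0.47, SE 0.13) and ncbi_110527664 (0.37, SE 0.11). The ST3GAL2 loci ncbi_110493845 and ncbi_110494626 did not pass (adjusted p = 0.0914 and 0.976).

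Genes of hormone conjugation had 0 of 6 tested loci higher and 1 lower (median 0.44), or 2 higher and 1 lower with library totals. Over all tested genes 21.7% were higher and 23.1% lower with TMM factors. With library totals 10805 of all 30691 tested genes were higher and 4544 lower. The listed symbols sult1st1, sult2st1 and ugt1a1 had no locus. The lower one, Ugt2a1 (ncbi_110533254), a glucuronosyltransferase locus, had 2 counts in the yellow mutant and 135 in the wild type. The scaled ratio of wild type over yellow mutant was 81.8 (exact Clopper-Pearson 95% counting interval 22.2 to 682), which covers counting error only. The other tested Ugt2a1 loci had log2 fold changes above 0 and did not pass. These were ncbi_110500636 (0.79, SE 0.40, adjusted p = 0.123), MSTRG.13753 (0.44, SE 0.29, adjusted p = 0.237) and ncbi_110500630 (0.36, SE 0.53, adjusted p = 0.612). An untested Ugt2a1 locus, ncbi_110533255, had 2 counts in the yellow mutant and 45 in the wild type. Genes of hormone synthesis were close to absent. Of 19 loci 1 passed the filter on low counts, and it did not pass the test. In the KEGG thyroid hormone signaling pathway as annotated in the table, 51 of 286 tested genes other than the receptors rose and 73 fell (median -0.06), against 21.7% of all tested genes that rose and 23.1% that fell. With library totals 93 rose and 45 fell, where 10805 of all 30691 tested genes rose and 4544 fell. This pathway was added after values had been seen.

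**Figure D5:**
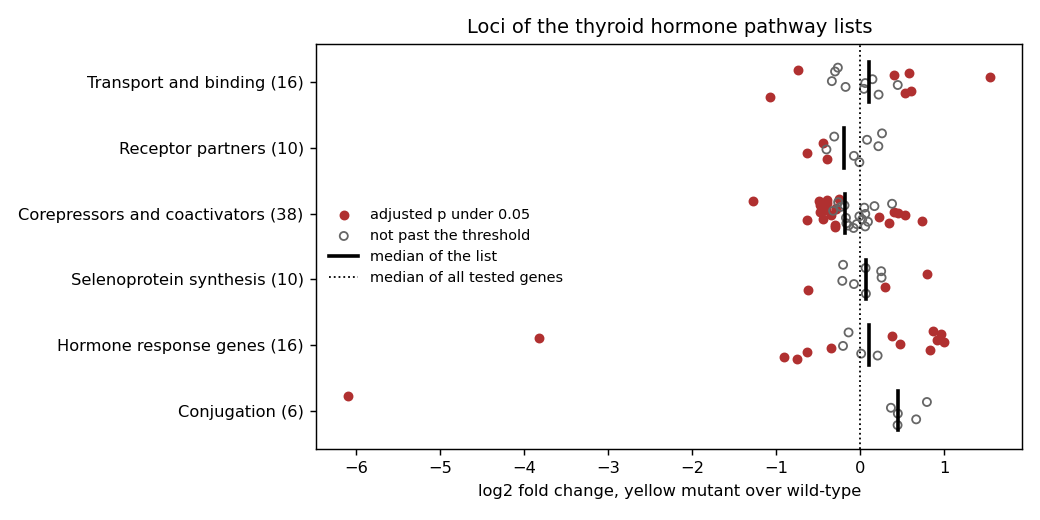
Log2 fold change of yellow mutant over wild-type skin for each tested locus of 6 pathway lists, with the number of tested loci in brackets, filled where the adjusted p is under 0.05. Calls lie on both sides of 0 in most lists, and the retinoid X receptors have 3 calls, all below 0. The farthest point left is Ugt2a1, whose fitted value rests on 2 yellow mutant counts.

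By the root mean square difference of log2 CPM, each gene centred on its own mean over the 6 libraries, the genes most like thra1 (ncbi_110499114) among 17660 candidates were SPRYD3 (ncbi_110494218, 0.0545), PDK1 (ncbi_110520110, 0.0563), Prkab1 (ncbi_110523663, 0.0583), SCARB1 (ncbi_100136324, 0.0591) and MYH9 (ncbi_110493551, 0.0614). The median difference over all candidates was 0.437. The genes most like dio1 were TMEM119 (ncbi_110523744, 0.0385), MIF (ncbi_110488642, 0.0389), Ggps1 (ncbi_110491209, 0.0406), ANKRD46 (MSTRG.13538, 0.0409) and llph (ncbi_110490472, 0.0462), against a median of 0.298. With 6 libraries in 2 phenotypes, likeness mostly reflects a similar difference between the phenotypes.

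Markers of several skin cell types differed along with these loci, where 21.7% of all tested genes were higher and 23.1% lower. Keratinocyte markers had 20 of 34 tested loci lower and 3 higher, with a summed 32027 to 35778 CPM in yellow mutant libraries, against 80755 to 84756 CPM in wild-type libraries. Melanophore markers had 11 of 13 tested loci higher and 0 lower, with a summed 1119 to 1333 CPM in yellow mutant libraries, against 499 to 590 CPM in wild-type libraries. Xanthophore markers had 4 of 6 tested loci higher and 1 lower, with a summed 141 to 184 CPM in yellow mutant libraries, against 85.1 to 98.2 CPM in wild-type libraries. Dermal fibroblast and scale markers had 6 of 16 loci lower and 0 higher, with a summed 49576 to 53895 CPM in yellow mutant libraries, against 61352 to 69657 CPM in wild-type libraries. Iridophore markers had 1 of 3 tested loci higher and 0 lower, muscle markers 1 of 13 higher and 3 lower, erythrocyte markers 3 of 6 lower, leukocyte markers 2 of 4 lower and Schwann cell markers 1 of 4 higher and 1 lower. The muscle calls did not exceed the shares over all tested genes. The iridophore, erythrocyte, leukocyte and Schwann cell lists are too short to set against those shares. Some listed marker symbols had no locus, among them krt4, krt5 and epcam of keratinocytes, csf1r of xanthophores and pnp4a and ltk of iridophores. With library totals the dermal list had 3 loci higher and 1 lower, and the keratinocyte and melanophore lists kept their leading direction, with 17 lower and 12 higher. Under that scaling 10805 of all 30691 tested genes were higher and 4544 lower. Their part in the changes of receptors and deiodinases was not tested. The high summed levels of the keratinocyte and dermal lists match the label dorsal skin. Markers of thyroid follicle cells summed to 1.74 to 3.12 CPM in yellow mutant libraries, against 1.82 to 2.58 CPM in wild-type libraries, over 13 loci of which 3 had no count.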

How the data were processed

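RNA of flash-frozen dorsal skin was extracted with Trizol and sequenced with Illumina libraries, per the labels' protocols. Bowtie2 2.2.8 and TopHat2 2.1.1 were used, per the submitters' processing notes, with no role given. The sources used here name neither the counter nor its strand setting, build or annotation. Per the file headers, the authors deposited raw read counts and FPKM values per gene and library. Their mean FPKM per phenotype has 0 replaced. The authors' log2 fold change compares these means. The deposited table adds p-values, which matched DESeq2's Wald p-values computed here within 0.1% at 100% of 34343 genes (those with p above 0.0001).

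Counts were filtered with filterByExpr, scaled with TMM factors and tested with glmQLFit and glmQLFTest (R 4.3.3, edgeR 4.0.16) with phenotype as the only term, and Benjamini-Hochberg adjustment ran over 30691 genes. The SE is the log2 fold change divided by the square root of F. Alternatives used limma 3.58.1 on log2(FPKM + 0.5) and DESeq2 1.42.0. The scripts were tested on simulated data. Sums, shares and ratios were compared with exact two-sided permutation tests. Log2 CPM for likeness used a prior count of 2. Libraries of a phenotype differed by more than sampling noise (chi-square per degree of freedom 3.88 to 23.1), so none was treated as a duplicate deposit of another.

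The loci were matched by symbol (thra, thrb, dio1, dio2 or dio3 with an optional final a or b) or by product name: 5 matched by both, 4 by product name alone and 1 by symbol alone. The loci and the gene lists were chosen with earlier results of these data known. On each pathway list, up to 3 called loci per direction with the largest change and a mean of at least 1 CPM are named, and every receptor and deiodinase locus is named. Other loci of some of these genes are given beside them, added after their values had been seen. Some loci that this rule covers are not reported here. Genes compared for likeness had a symbol and a mean of at least 5 CPM. All 10 NCBI gene numbers were found in the RefSeq table, which was used for names and neighbours only.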

Additional observations from a re-analysis of the deposited data

How the results depend on the processing

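Under scaling by library totals 70.4% of called genes were higher, against 48.5% with TMM factors, and the median log2 change was 0.20, against -0.003. With limma on FPKM, which is also scaled to library totals, that share was 70.8% at each of the 3 pseudocounts. Changes of the receptors and deiodinases are relative to the TMM factors, and no locus among the 9 tested changed sign in any alternative run. The number of receptor and deiodinase loci called was 8, and 6 to 8 in the alternatives on the full set (7 with library totals and in DESeq2, 6 with limma, 6 to 8 when 1 library was left out). With loci required to match by both symbol and product name, 5 remained and 4 were called, since the symbol thra1 fails the symbol rule and the product name of dio3 (ncbi_110498181) fails the other. On the full set of loci the lost calls were at thra1 (ncbi_110537966), lost in 7 of 15 alternatives with adjusted p of 0.0856 to 0.214, and thrb (ncbi_100135978), lost in 7 of 15 with 0.0589 to 0.224. On the pathway lists 47 of 97 tested loci were called, 20 higher and 27 lower, against 44.8% of all tested genes. With library totals alone 52 were called, 35 higher and 17 lower. Over all 30691 tested genes that scaling called 15349, 10805 higher and 4544 lower. Without 1 library the number of genes called over all was 11674 to 12553. The summed log2 difference of dio3 was 1.15, and 1.07 to 1.25 without 1 library, that of thra -0.44 (-0.47 to -0.42), that of thrb -0.45 (-0.48 to -0.39), that of dio1 0.45 (0.37 to 0.54) and that of dio2 0.30 (0.10 to 0.43). Scaling moved these sums beyond those ranges. With library totals alone the difference was 1.35 for dio3, -0.24 for thra, -0.25 for thrb, 0.65 for dio1 and 0.49 for dio2. Replicate numbers are shared in the labels, but same-numbered libraries deviated together only weakly (correlations of 0.0801, 0.0137 and 0.0557), so the numbers were not taken as pairs. All 6 libraries correlated best with their own number, a hint from the data and not from the design. With the replicate block 13868 genes were called in place of 13737, and the same number of receptor and deiodinase loci, 8. The call of sepsecs was lost with the block (adjusted p = 0.0509). Depth limits dio2 (28 counts in the yellow mutant and 19 in the wild type) and thra1 (ncbi_110521019).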
